A study of Mus musculus with 15 samples.

Results

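The genes described here are 5 aquaporins, Aqp1, Aqp3, Aqp8, Aqp9 and Aqp11, and the urea transporter gene Slc14a1, which make 6 of 19933 genes measured on the arrays. They were named as a group with earlier results of these data known, and the probe set of each was to be chosen by its mean level over the 15 arrays among those annotated to that symbol alone. Each of the 6 genes had 1 such probe set, so no choice between probe sets was made. Because the group was named with those results known, the counts of these genes below are a description beside the share of all genes, not independent support. The same holds for their adjusted p values and for the share of genes with their directions. The cells were G1E cells, an immature mouse erythroid line without functional GATA1, the transcription factor that drives red cell maturation. GATA1-ER, a fusion with an estrogen receptor domain that is active in the presence of hormone, was put back as wild type or with 1 of 4 substitutions, R216Q, R216W, D218G or D218Y. The 5 lines were treated with estradiol at 100 nM, lasting 24 hours, and each had 3 biological replicates. All lines therefore share the GATA1-null background, the fusion and the hormone, untreated cells were not analysed here, and a line and its mutation cannot be told apart.

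Aquaporins form pores in membranes that let water pass, and the aquaglyceroporins among them, such as Aqp3 and Aqp9, also carry glycerol and other small neutral solutes. Aqp1 is the main water channel of mature red cells, and Slc14a1 encodes UT-B, the red cell urea transporter that carries the Kidd blood group antigens in humans. Aqp8 passes water and also ammonia and hydrogen peroxide, and Aqp11 is an intracellular member with an unorthodox pore motif. Both altered residues belong to the N-terminal finger of GATA1, a part of the protein that touches DNA and the cofactor FOG1.

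The promoters of Aqp3 and Aqp8 are shown because these transcripts followed the same order of direction over the mutants. Each line below gives the 250 bases before the annotated start site, 5′ to 3′ on the gene's strand, from RefSeq on build GRCm38.p6. Capitals mark GATA, the core of the motif bound by GATA factors, and CACCC, the core bound by Krüppel-like factors such as Klf1, on either strand (TATC and GGGTG on the other).

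Aqp3, chr4:41098184-41098433, minus strand: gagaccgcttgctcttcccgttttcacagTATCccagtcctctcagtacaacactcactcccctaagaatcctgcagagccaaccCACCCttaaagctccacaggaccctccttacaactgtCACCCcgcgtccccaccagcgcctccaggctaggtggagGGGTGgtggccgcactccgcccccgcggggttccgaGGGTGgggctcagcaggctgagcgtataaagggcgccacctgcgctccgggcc

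Aqp8, chr7:123462044-123462293, plus strand: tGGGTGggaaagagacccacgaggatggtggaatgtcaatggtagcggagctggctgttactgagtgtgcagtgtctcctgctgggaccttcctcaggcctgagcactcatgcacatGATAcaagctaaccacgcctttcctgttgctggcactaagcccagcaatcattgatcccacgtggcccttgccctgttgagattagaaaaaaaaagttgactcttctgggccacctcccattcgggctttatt

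The window before Aqp3 held 1 match to GATA and 4 to CACCC, and the window before Aqp8 held 1 match to each. Neither held the longer string AGATAA, nor the string AGATAG, nor the string TGATAA, nor the string TGATAG, all of which contain GATA. Among 32851 windows of the same length in the table, 53.6% held GATA, 52.0% held CACCC and 26.5% held 1 of the longer strings, on either strand. A promoter was listed for 5 of the 6 genes, all but Slc14a1. The window before Aqp1 held 3 matches to CACCC and that before Aqp11 held 2, both without GATA. Aqp9 had 2 windows listed. Its window 1 held none of these strings, and its window 2 held 2 of the longer strings and no CACCC. The shorter strings were searched for after the values were known, and a match is a description of letters, not a bound site.

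Values are log2 RMA values, so 1 unit is a 2-fold step, and levels are compared between lines for the same gene only. The lowest value in the table was 2.89 and the highest 13.58, and the median of an array was at least 6.24 and at most 6.41. The lowest medians belonged to the D218Y arrays and to replicate 3 of D218G, an array that stood apart from its line. Of 10 erythroid marker genes 9 were measured, with array means of 11.28 to 11.31 in wild type, and 11 measured genes of other organs read 3.81 to 6.84, which gauges the lowest signals. Gata1 transcript read 12.05 to 12.38 over all arrays, and it fell in R216Q, R216W and D218Y by limma (-0.21, -0.11 and -0.29 against wild type); whether its probes lie in the part the null allele lacks was not examined.

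In R216W cells Aqp3, Aqp8, Slc14a1 and Aqp11 all rose against wild type, whereas in R216Q cells, with another substitution of the same residue, the same 4 genes all fell. In D218G and D218Y cells Aqp3, Aqp8 and Slc14a1 fell and Aqp11 rose. Aqp1 and Aqp9 did not pass the test in any mutant against wild type. The test was limma's moderated test with Benjamini-Hochberg adjustment over all genes, with calls at an adjusted p under 0.05. In R216Q 4 of 6 genes (66.7%) passed, all lower, where 21.5% of all genes passed and 9.65% were lower. In R216W 4 of 6 passed, all higher, where 16.6% of all genes passed and 9.36% were higher. In D218G 3 were lower and 1 higher, where 18.1% of all genes passed, 7.77% lower and 10.3% higher. In D218Y 3 were lower and 1 higher as well, where 44.4% of all genes passed, 24.2% lower and 20.3% higher. For the same 4 genes the arrays of each mutant did not overlap those of wild type, which held for 31.7% of all genes in R216Q, 30.1% in R216W, 26.4% in D218G and 55.9% in D218Y. A test of any change across the lines (limma's F test) passed for the same 4 of 6 genes and for 41.9% of all genes. In such bulk samples fewer cells of a type and less RNA per cell cannot be told apart. The median change of the 6 genes was -0.31, 0.34, -0.43 and -0.44 in that order of lines, beside -0.01, -0.02, -0.02 and -0.07 for all genes.

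**Figure D1:**
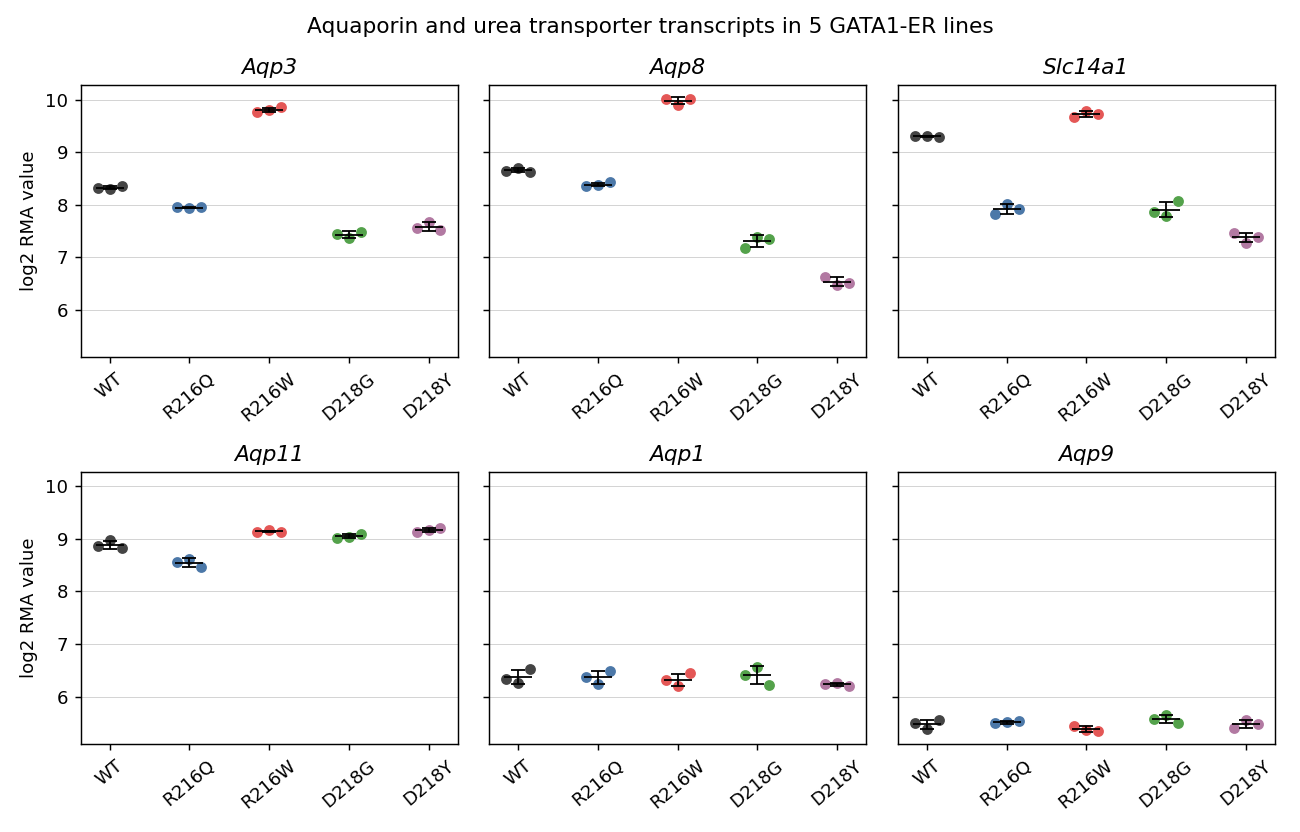
Log2 RMA values (y axis) of the 6 genes in the 5 lines (x axis), with 1 point per array and the mean ± SD of 3 arrays in black. Aqp3, Aqp8 and Slc14a1 are highest in R216W, Aqp11 is lowest in R216Q, and the lines overlap for Aqp1, while for Aqp9 R216W lies apart from R216Q and from D218G.

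Aqp3, the aquaglyceroporin that carries water and glycerol, was the gene with the largest rise among the 6 in R216W. Its wild type arrays read 8.31, 8.30 and 8.36, and its R216W arrays 9.77, 9.80 and 9.85. The R216Q arrays read 7.95, 7.94 and 7.95, the D218G arrays 7.44, 7.36 and 7.48, and the D218Y arrays 7.56, 7.67 and 7.51. No array of a mutant line overlapped the wild type range, and R216W alone lay above it.

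Against wild type, Aqp3 rose by 1.48 ± 0.05 on the log2 scale in R216W, a 2.79-fold rise (limma's moderated SE, n = 3 per line, adjusted p = 2.36e-11). It fell in the others, by limma: -0.38 ± 0.05 in R216Q (adjusted p = 1.93e-05), -0.90 ± 0.05 in D218G (adjusted p = 8.55e-09) and -0.75 ± 0.05 in D218Y (adjusted p = 3.71e-09). The order of lines from high to low was R216W, wild type, R216Q, D218Y and D218G. The last step was small: D218Y was above D218G by 0.15 ± 0.05 (adjusted p = 0.0177 by limma), and this call was lost after quantile normalization (0.05, adjusted p = 0.466), with only the arrays of both lines in the fit (adjusted p = 0.0969), without replicate 2 of D218G and without replicate 2 of D218Y (adjusted p up to 0.0927). R216W and R216Q differed by 1.86 ± 0.05, which is 3.63-fold (adjusted p = 9.27e-12).

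Aqp8, a channel for water that also passes hydrogen peroxide, had the widest span of the 6 genes. Its wild type arrays read 8.65, 8.70 and 8.63. The R216W arrays were above them at 10.02, 9.90 and 10.01, and the R216Q arrays just below at 8.36, 8.37 and 8.43. The D218G arrays read 7.17, 7.39 and 7.34, and the D218Y arrays 6.63, 6.48 and 6.51. The ranges of the 5 lines did not overlap.

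In R216W Aqp8 rose by 1.32 ± 0.06, or 2.50-fold (limma's SE, adjusted p = 9.53e-10). Its change was -0.27 ± 0.06 in R216Q (adjusted p = 0.00273 by limma), -1.36 ± 0.06 in D218G (adjusted p = 1.47e-09) and -2.12 ± 0.06 in D218Y (adjusted p = 6.55e-13), the last a 4.34-fold fall. Every neighbouring pair in the order R216W, wild type, R216Q, D218G and D218Y differed by this test. D218Y minus D218G was -0.76 ± 0.06 (adjusted p = 7.78e-08), and D218Y minus R216W was -3.44 ± 0.06, or 10.9-fold (adjusted p = 8.24e-15). The D218Y values lie within the readings of the genes of other organs, where RMA compresses differences, which bears on the size of the fall in that line.

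Slc14a1, the red cell urea transporter gene, gave the same order of line means as Aqp8, with different steps. The wild type arrays read 9.31, 9.31 and 9.29, and the R216W arrays were a little higher at 9.67, 9.78 and 9.73. The R216Q arrays read 7.82, 8.02 and 7.91, the D218G arrays 7.87, 7.78 and 8.07, and the D218Y arrays 7.46, 7.28 and 7.39. R216Q and D218G overlapped each other, and both lay between wild type and D218Y.

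Slc14a1 rose in R216W by 0.43 ± 0.07 (limma's SE, adjusted p = 4.6e-04), which is 1.34-fold. Its change was -1.39 ± 0.07 in R216Q (adjusted p = 2.88e-09 by limma), -1.40 ± 0.07 in D218G (adjusted p = 7.59e-09) and -1.92 ± 0.07 in D218Y (adjusted p = 1.25e-11). R216Q and D218G stood at 38.3% and 38.0% of the wild type level, and the difference between them was -0.01 (95% interval -0.16 to 0.14, adjusted p = 0.969 by limma). D218Y minus D218G was -0.53 ± 0.07 (adjusted p = 2.6e-05). Beside this change of -1.39 in R216Q, Aqp3 and Aqp8 changed by -0.38 and -0.27 in the same arrays, a difference between genes that was not tested.

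Aqp11, the intracellular aquaporin, followed another order and a narrower span. Its wild type arrays read 8.87, 8.97 and 8.82, and its R216Q arrays 8.56, 8.62 and 8.47. The R216W arrays read 9.14, 9.16 and 9.13, the D218G arrays 9.02, 9.03 and 9.10, and the D218Y arrays 9.14, 9.17 and 9.21. R216Q lay below wild type without overlap, and the other mutant lines lay above it without overlap.

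Aqp11 changed by -0.34 ± 0.05 in R216Q (limma's SE, adjusted p = 8.74e-05), to 79.1% of wild type. It rose by 0.25 ± 0.05 in R216W (adjusted p = 0.00143 by limma) and by 0.29 ± 0.05 in D218Y (adjusted p = 1.67e-04). In D218G the rise was 0.16 ± 0.05 (adjusted p = 0.0296), and without replicate 3 of D218G it was 0.14 (adjusted p = 0.094). That call was also lost when replicate 1 or 3 of wild type or replicate 1 of D218G was left out (adjusted p up to 0.132), after quantile normalization (adjusted p = 0.0586), with array weights (adjusted p = 0.0519), with the arrays of both lines alone (adjusted p = 0.133) and with arrays centred on their medians (adjusted p = 0.153). R216W, D218G and D218Y did not differ beyond the test: D218G minus R216W was -0.09 (95% interval -0.20 to 0.01, adjusted p = 0.229), D218Y minus R216W was 0.03 (-0.07 to 0.13, adjusted p = 0.645), and D218Y was above D218G by 0.12 (0.02 to 0.23, adjusted p = 0.0602), a difference that passed without replicate 3 of D218G (0.15, adjusted p = 0.0316), without replicate 2 of wild type (adjusted p = 0.0416), without replicate 3 of R216Q (adjusted p = 0.0408) and among genes above the median level (adjusted p = 0.0283).

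**Figure D2:**
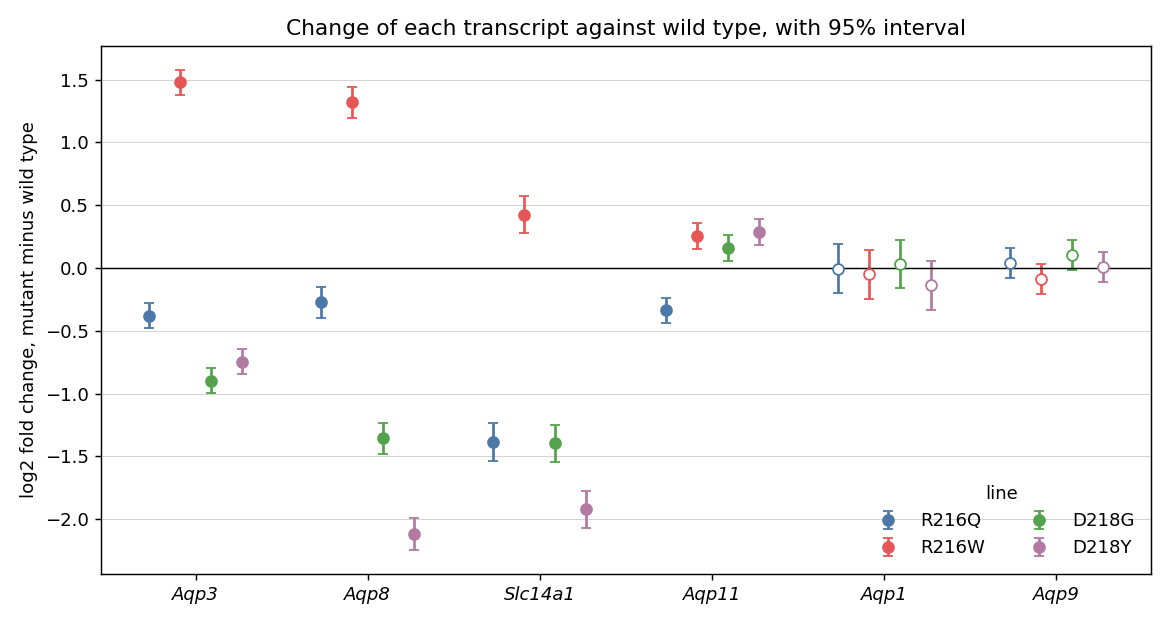
Log2 fold change against wild type (y axis) of each gene (x axis) in the 4 mutant lines, with limma's 95% interval; filled points passed an adjusted p under 0.05 and open points did not. R216W is above 0 for Aqp3, Aqp8, Slc14a1 and Aqp11, R216Q is below 0 for the same 4 genes, and the intervals of Aqp1 and Aqp9 cross 0.

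Aqp1, the water channel of mature red cells, read 6.20 to 6.56 over all 15 arrays, within the range of the genes of other organs. Its changes against wild type were -0.01 in R216Q, -0.05 in R216W, 0.03 in D218G and -0.14 in D218Y, each ± 0.09 (limma's SE, adjusted p from 0.226 to 0.985), and the lines overlapped. The widest 95% interval bound was -0.33, in D218Y. Its values went with the array medians (Pearson's r = 0.88 over 15 arrays, which share lines and normalization).

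Aqp9, an aquaglyceroporin of liver and leukocytes, read 5.35 to 5.65, also within the range of the genes of other organs. Its changes against wild type were 0.04 in R216Q, -0.08 in R216W, 0.10 in D218G and 0.01 in D218Y, each ± 0.06 (limma's SE, adjusted p from 0.286 to 0.885). After quantile normalization it passed in D218G (0.13, adjusted p = 0.0305) and in D218Y (0.11, adjusted p = 0.0363), and after cyclic loess likewise (adjusted p = 0.0245 and 0.0233). D218G was above R216W by 0.19 ± 0.06 (adjusted p = 0.0258), a call lost with the arrays of both lines alone (adjusted p = 0.0656) and without replicate 2 or 3 of R216W or replicate 1 or 2 of D218G (adjusted p up to 0.117). D218Y minus R216W was 0.10 (adjusted p = 0.214 by limma), and it passed after quantile normalization (0.17, adjusted p = 0.00386), after cyclic loess (0.17, adjusted p = 0.00276) and with arrays centred on their medians (0.16, adjusted p = 0.0237). Of 13 granulocyte and monocyte markers, none passed by limma in any mutant, with 1, 0, 0 and 2 at an unadjusted p under 0.05 in R216Q, R216W, D218G and D218Y.

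Between mutants at the same residue, 4 of 6 genes passed between R216W and R216Q, all higher in R216W, where 16.9% of all genes passed and 8.25% were higher. Between D218Y and D218G 3 of 6 passed, where 33% of all genes did: Aqp8 and Slc14a1 were lower in D218Y and Aqp3 was higher. Without replicate 3 of D218G 5 passed, Aqp11 (higher) and Aqp1 (-0.26, adjusted p = 0.0266 by limma) being the others, and the calls over all genes went from 6583 to 9176. Across residues, 3 genes passed between D218G and R216Q (13.4% of all genes), 4 between D218Y and R216Q (31.8%), 4 between D218G and R216W (22% of all genes) and 3 between D218Y and R216W (36.3%). The comparisons with wild type share the wild type arrays, and the direct comparisons between mutants do not use them apart from the shared estimate of the spread. The 4 genes that passed between R216W and R216Q had opposite calls against wild type in those lines. So did Aqp3, Aqp8 and Slc14a1 in R216W and each D218 line, and Aqp11 in R216Q and each D218 line. With opposite calls the direct difference is nearly bound to pass, so such passes are not further support.

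With a change of at least 2-fold asked beside the adjusted p, 1 of the 6 genes passed in R216Q (Slc14a1), where 0.502% of all genes did, and 2 passed in R216W (Aqp3 and Aqp8), where 0.452% did. In D218G and in D218Y 2 passed, Aqp8 and Slc14a1, where 0.221% and 3.57% of all genes did. Aqp8 passed between D218G and R216Q (0.261% of all genes) and between D218Y and R216Q (1.05%), and 0 of 6 between D218Y and D218G (1.51%). Aqp3, Aqp8 and Slc14a1 also passed between R216W and each other mutant, where the share of all genes was not counted.

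The array that stood apart, replicate 3 of D218G, changed the values of Aqp3, Aqp8 and Slc14a1 in D218G little. As given above, the Aqp11 call in D218G was lost without this array, and more genes passed between D218Y and D218G. Without it the change against wild type in D218G was -0.93 for Aqp3, -1.38 for Aqp8 and -1.48 for Slc14a1.

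Over the 15 arrays Aqp3 and Aqp8 had a Pearson's r of 0.91, Aqp8 and Slc14a1 of 0.90, and Aqp3 and Slc14a1 of 0.87, whereas Aqp11 had -0.16 with Aqp8 and 0.11 with Slc14a1. These describe 5 groups of arrays that share their lines. The order of line means was the same for Aqp8 and Slc14a1.

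**Figure D3:**
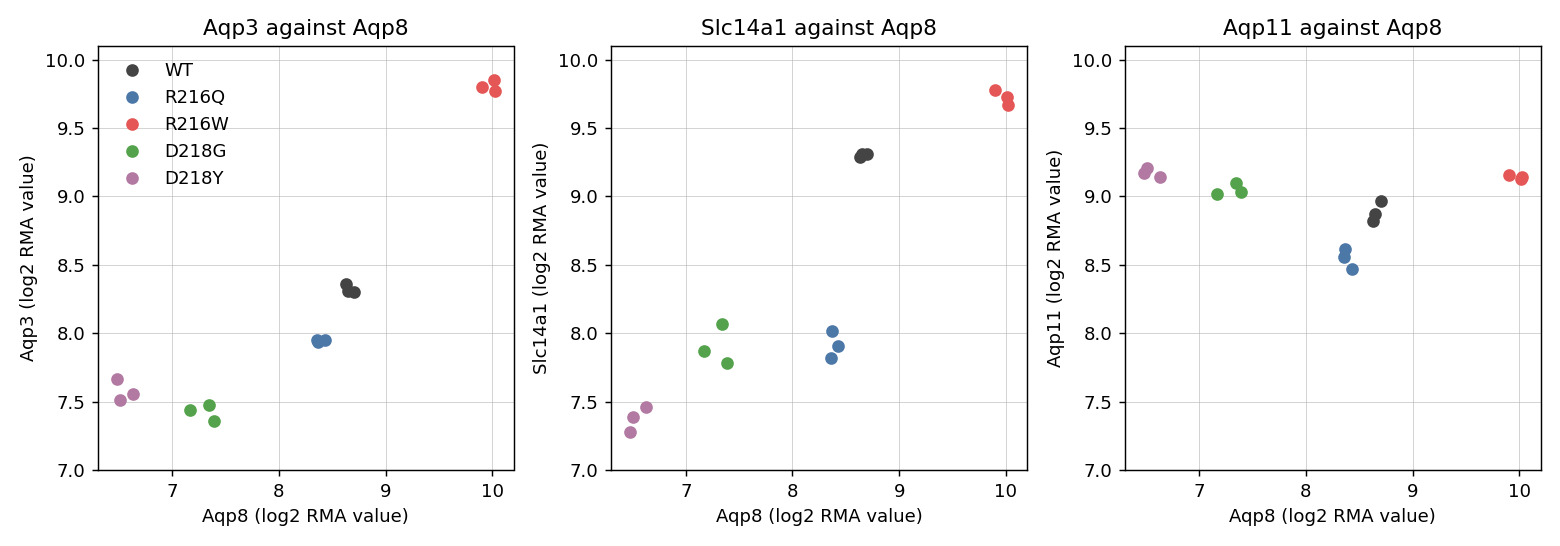
Log2 RMA values of Aqp3, Slc14a1 and Aqp11 (y axes) against Aqp8 (x axes), with 1 point per array, coloured by line; WT is wild type. R216W lies at the upper right and the D218 lines at the lower left for Aqp3 and Slc14a1, while R216Q sits at the D218G level for Slc14a1 and the D218 lines are near the level of R216W for Aqp11.

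Directions of call, in the order R216Q, R216W, D218G and D218Y, were lower, higher, lower and lower for Aqp3, Aqp8 and Slc14a1, a combination that 101 of 19933 genes had (0.507%). Aqp11 was the one gene tested with lower, higher, higher and higher, which rests on its D218G call. The genes nearest to each pattern were taken by Pearson's r over the 15 arrays, as a description. For Aqp3 they were Arhgap21 (r = 0.99), the phospholipase gene Pla2g4c (0.98), Aco1, the cytosolic aconitase that doubles as iron regulatory protein (0.98), Sft2d2 (0.98) and Rab4b (0.98). Pla2g4c changed by 1.95 in R216W and -1.49 in D218Y, and Aco1 changed by 0.47 and -0.43 in the same lines. For Aqp8 they were the antiviral adaptor gene Mavs, Arfgap3, Arnt, the blood transcription factor gene Runx1 and Gskip, each at r = 0.99, and Runx1 changed by 0.32 in R216W, -0.60 in D218G and -0.95 in D218Y. For Slc14a1 they were the glypican gene Gpc4 (r = 0.997), Cpne7, Utrn, the dystrophin relative utrophin, Osbpl1a and Eps15l1 (0.99 each), and Cpne7 changed by -1.66 in R216Q and -2.25 in D218Y. For Aqp11 they were Lyrm9 (r = 0.93), Ifi30, a lysosomal thiol reductase gene (0.92), the mismatch repair gene Msh6 (0.92), Arid3a (0.91) and Snx2 (0.90).

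The wider family gave few other calls. All 14 aquaporin and urea transporter genes listed were measured, and beside the 6 genes above these were Mip, Aqp2, Aqp4, Aqp5, Aqp6, Aqp7, Aqp12 and Slc14a2, with a highest value of 7.43, for Aqp2. In R216Q, R216W and D218G none of these 8 passed. In D218Y Aqp2, the vasopressin-regulated channel of the kidney, fell (-0.37 ± 0.11, limma's SE, adjusted p = 0.013), as did Aqp12 (-0.23 ± 0.08, adjusted p = 0.0307) and Aqp5 (-0.19 ± 0.07, adjusted p = 0.0407). With arrays centred on their medians, which were lowest in D218Y, Aqp12 (-0.13, adjusted p = 0.124) and Aqp5 (-0.10, adjusted p = 0.186) no longer passed and Aqp2 did (-0.28, adjusted p = 0.012). The Aqp2 call was lost without replicate 3 of wild type or of D218Y (adjusted p up to 0.061), and those of Aqp12 and Aqp5 without any of 5 and of 7 single arrays (adjusted p up to 0.115 and 0.161). Of 11 genes of other organs 3 were lower in D218Y. Over all genes 24.2% were lower in that line, which is the background for these falls too.

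Among other carriers of the red cell membrane more genes fell than rose in each mutant, R216W included. Over all genes 11.8% rose and 9.65% fell in R216Q, 9.36% and 7.23% in R216W, 10.3% and 7.77% in D218G, and 20.3% and 24.2% in D218Y, which is the background for the lists here and below. Of 23 measured genes of red cell solute, ion and gas transport 4 rose and 9 fell in R216W (median -0.06). The falls included Slc12a4, a potassium-chloride cotransporter gene (-1.05 ± 0.04), Stom, the membrane protein stomatin (-0.87 ± 0.04), the nucleoside transporter gene Slc29a1 (-0.83 ± 0.04) and Rhd (-0.62 ± 0.04). In R216Q 6 rose and 12 fell (median -0.14), with the anion exchanger gene Slc4a1 at -1.06 ± 0.05 and the glucose transporter gene Slc2a1 at 0.67 ± 0.07. In D218G 5 rose and 11 fell (median -0.10), and in D218Y 7 rose and 12 fell (median -0.37). Of these genes Abcg2, an exporter of porphyrins and drugs, had the directions of Aqp3 in all 4 mutants, at -0.21, 0.22, -0.53 and -0.64 in R216Q, R216W, D218G and D218Y.

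Genes that handle the solutes of these channels went both ways. Of 12 glycerol and urea metabolism genes 2 rose and 3 fell in R216Q, 3 rose and 1 fell in R216W, 3 rose and 3 fell in D218G, and 3 rose and 4 fell in D218Y. Lipe, the hormone-sensitive lipase that frees glycerol from fat, fell in every mutant (-1.17, -0.58, -0.74 and -1.46 in the same order), and Asl, a urea cycle enzyme, rose in every mutant (0.28, 0.30, 0.26 and 0.40). Of 14 cell volume and osmotic response genes 2 rose and 2 fell in R216Q, 1 rose and none fell in R216W, 2 rose and 3 fell in D218G, and 5 rose and 6 fell in D218Y. Lrrc8b, a subunit of the volume-regulated anion channel, fell in R216Q (-0.76), D218G (-0.54) and D218Y (-1.15). The chloride exchanger gene Clcn3, the one that rose in R216W (0.16 ± 0.04), fell in D218G (-0.35) and D218Y (-0.45). Of 11 peroxide handling genes 4 rose and 4 fell in R216Q, 1 rose and 2 fell in R216W, 2 rose and 2 fell in D218G, and 3 rose and 6 fell in D218Y, with the lipid peroxidase gene Gpx4 lower in all 4 (-0.58, -0.21, -0.18 and -0.68).

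**Figure D4:**
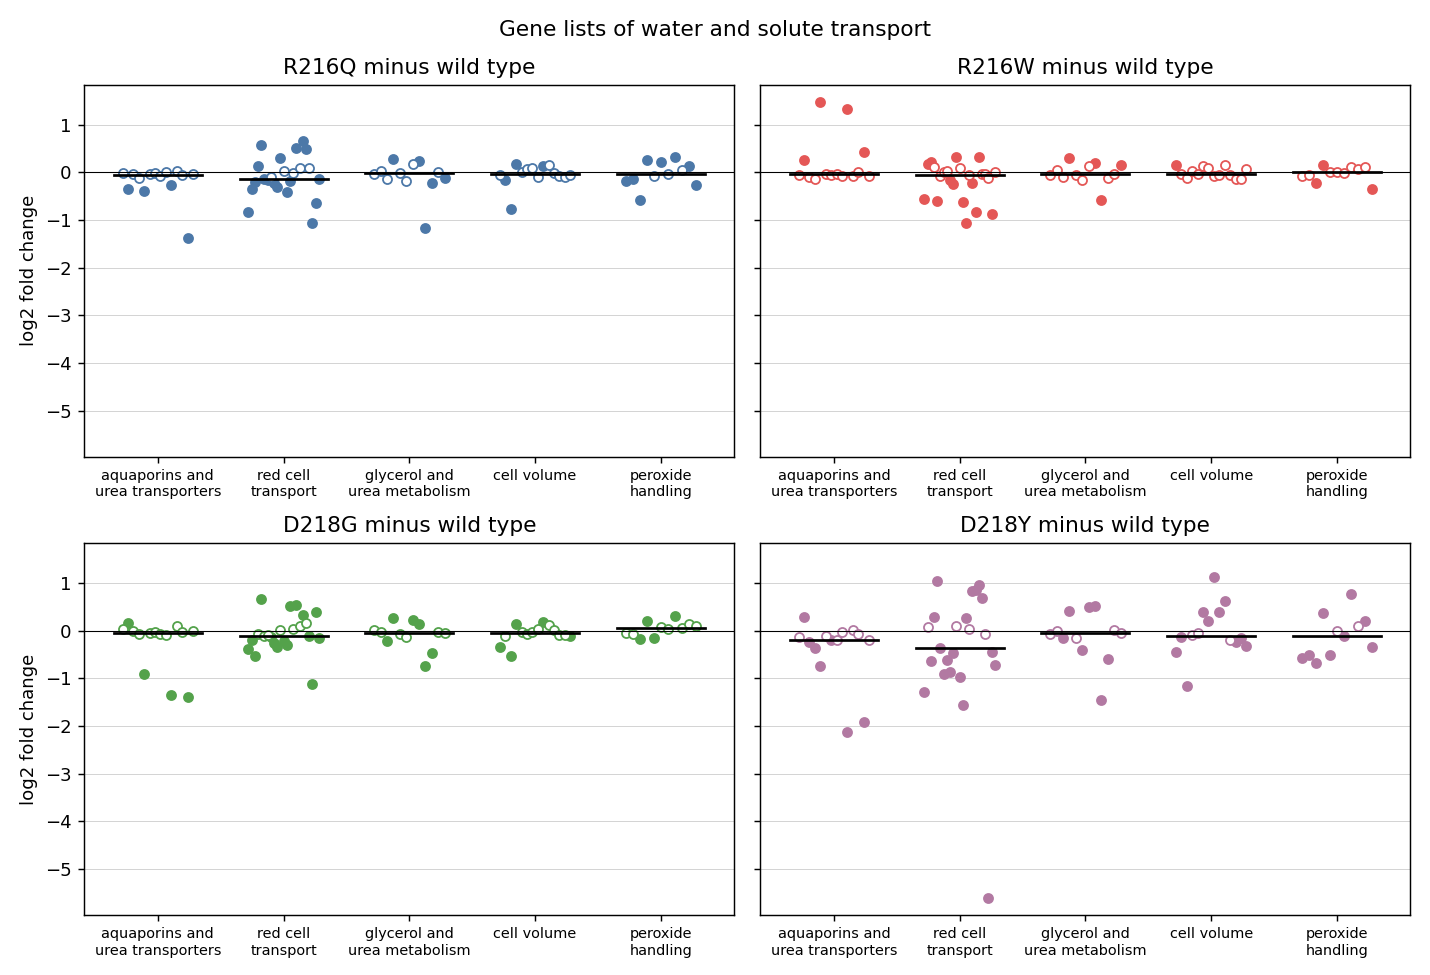
Log2 fold change against wild type (y axis) of the measured genes of 5 lists (x axis) in the 4 mutant lines; filled points passed an adjusted p under 0.05, open points did not, and the bar is the list's median. In R216W the highest points are Aqp3 and Aqp8, at 1.48 and 1.32, while 9 of 23 red cell transport genes lie below 0 and passed; the lowest point in D218Y is Slc4a1.

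Markers of maturation moved with the lines too. Of 9 erythroid markers 8 fell in R216Q, 6 in R216W, 7 in D218G and 9 in D218Y, and none rose, with array means of 10.63 to 10.65, 10.98 to 11.03, 10.67 to 10.71 and 9.47 to 9.52. Gata1, the gene put back as the fusion, is among these 9 markers and among the falls in R216Q, R216W and D218Y. In R216W 6 of the 9 markers, Gata1 included, thus fell where 4 of the 6 channel genes rose. Slc4a1 is also among the red cell transport genes. Of 5 progenitor markers 4 rose in R216Q, R216W and D218Y, and 3 rose and 1 fell in D218G. Of 8 mast cell markers 4 rose and 1 fell in D218Y, with array means of 5.89 to 5.97 against 5.04 to 5.09 in wild type, and 1 or none passed in each other mutant. Of 7 megakaryocyte markers 2 fell in R216Q, 3 in R216W, 2 in D218G and 3 in D218Y, with 1 higher in D218G and in D218Y. Of 5 lymphoid markers 1 was lower in D218Y. The part of these markers in the results for the water and urea channels was not tested.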

How the data were processed

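Total RNA from 15 cultures was measured on Affymetrix mouse arrays; group and replicate came from the sample titles. The deposited log2 values, 1 per probe set and array, were made by the authors with Partek 6.6 and RMA, per the submitters' processing notes; the sources used here name no settings. RMA corrects background, normalizes by quantiles and compresses changes of dim genes. Of 28350 probe sets 21780 had 1 gene symbol in the platform annotation, 1618 several and 4952 none listed; 21689 matched RefSeq by gene identifier, and 0 symbols changed. Genes with several probe sets were taken at the highest mean, giving 19933 genes, with no filter or rescaling.

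All 15 arrays were fitted with limma 3.58.1 in R 4.3.3 (1 mean per line, eBayes, 10 pairwise contrasts, two-sided, Benjamini-Hochberg over all genes). Errors are moderated SE. The text uses rose and fell for an adjusted p under 0.05. Arrays give no depth, so precision rests on the number of arrays, their spread and the signal over background, and a p-value reflects only how far these cultures differ. The genes and lists were chosen with earlier results of these data known, and the rule for probe sets used the mean level, not a difference between lines. Named genes were the 6 genes, their family, up to 4 called genes per list and contrast with the largest changes, and 5 genes per pattern, passing over placeholder symbols and small RNAs; Gpx4, Clcn3, Lrrc8b, Asl, Lipe and Abcg2 are followed across all lines. The fit was run on simulated data with independent normal noise, which checks the procedure and not the noise of these arrays. Alternatives were other normalizations, filters, moderation, weights, probe set rules, thresholds, the replicate number as a block and leaving out each array; centring arrays on their medians was added after seeing the data. Protein sequences were not used here.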

Additional observations from a re-analysis of the deposited data

Results flagged for a closer look

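The following differences between mutants are singled out because the compared mutants lay on opposite sides of wild type, each past the test, and the direct difference passed as well (limma, Benjamini-Hochberg over all genes, n = 3 per line). With opposite calls against the same wild type arrays, the direct difference is nearly bound to pass, so its adjusted p is not further support. For Aqp3, R216W was above R216Q by 1.86 ± 0.05 (SE, adjusted p = 9.27e-12), and against R216W the difference was -2.38 ± 0.05 in D218G (adjusted p = 1.24e-13) and -2.22 ± 0.05 in D218Y (adjusted p = 5.34e-14). For Aqp8, R216W was above R216Q by 1.59 ± 0.06 (adjusted p = 1.75e-10), and against R216W the difference was -2.68 ± 0.06 in D218G (adjusted p = 3.01e-13) and -3.44 ± 0.06 in D218Y (adjusted p = 8.24e-15). For Slc14a1, R216W was above R216Q by 1.81 ± 0.07 (adjusted p = 2.77e-10), and against R216W the difference was -1.82 ± 0.07 in D218G (adjusted p = 8.79e-11) and -2.35 ± 0.07 in D218Y (adjusted p = 1.78e-12). Aqp11 differed around R216Q in place of R216W: R216W was higher than R216Q by 0.59 ± 0.05 (adjusted p = 4.94e-07), D218G by 0.50 ± 0.05 (adjusted p = 4.05e-06) and D218Y by 0.62 ± 0.05 (adjusted p = 1.04e-07). That D218G is listed for Aqp11 rests on its call against wild type, which was lost under several alternatives given above.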

How the results depend on the processing

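Under every alternative run apart from the 2-fold threshold, Aqp3, Aqp8 and Slc14a1 kept their direction and their calls against wild type, and Aqp11 its calls in R216Q, R216W and D218Y. With at least 2-fold asked as well, 1 gene passed in R216Q, 2 in R216W, 2 in D218G and 2 in D218Y, 1 between D218G and R216Q, 1 between D218Y and R216Q, and 0 between D218Y and D218G (3 by limma without the fold). Aqp3, Aqp8 and Slc14a1 passed between R216W and each other mutant at this threshold too. Shares of all genes are given above where they were counted. Leaving out single arrays gave 2 to 5 genes between D218Y and D218G. Of all genes, the fit on the arrays of 2 lines called 2106 in D218G against wild type (3601 in the report's fit) and 1541 against R216Q (2668). Array weights, whose fit stopped short of convergence, called 7357 in R216Q (4283), 5403 in R216W (3308), 5397 between R216W and R216Q (3369) and 9935 between D218Y and R216Q (6343). Centring arrays called 2098 in R216W, 2358 in D218G, 2037 between R216W and R216Q and 1609 between D218G and R216Q. The cause was not tested. The replicate block left 4 of 6 genes called in each mutant against wild type and called 4020, 2998, 3297 and 8305 genes in R216Q, R216W, D218G and D218Y; Aqp5 in D218Y was lost (adjusted p = 0.0642). The numbers do not pair the arrays across all lines: 3 of 30 same-numbered pairs had deviations correlated over 0.1, and 1 of 15 arrays went best with its own number. Those pairs were wild type with R216Q in replicates 2 (r = 0.41) and 3 (0.33), and D218G with D218Y in replicate 2 (0.39). The lowest pair stood at -0.50. The array medians of wild type, R216Q and R216W were each highest in replicate 3 and lowest in replicate 2. Those of D218G and D218Y were highest in replicate 2. Whether some of the lines share an order of replicates was not tested. Aqp1 and Aqp9 were not tested among genes above the median level.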

Other observations

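Among the red cell transport genes, 3 had directions opposite to those of Aqp3 and Aqp8 in R216W and in both D218 lines. Slc12a4, the potassium-chloride cotransporter gene, was at -1.05 ± 0.04 in R216W, 0.52 ± 0.04 in D218G and 0.27 ± 0.04 in D218Y (limma's SE, n = 3 per line). Car1, a carbonic anhydrase gene, was at -0.59 ± 0.04, 0.66 ± 0.04 and 1.03 ± 0.04, and Slc16a1, a lactate transporter gene, was at -0.23 ± 0.05, 0.54 ± 0.05 and 0.82 ± 0.05 in the same lines. In R216Q Car1 (0.58) and Slc16a1 (0.52) rose, opposite to Aqp3 and Aqp8, while Slc12a4 (-0.19) fell as they did. All of these passed by limma with Benjamini-Hochberg adjustment. The share of all genes with such directions was not counted. They were picked after their values were seen.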
